A study of Mus musculus with 17 samples.

Results

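The genes described here are the mouse Wnt ligands, the Frizzled receptors and the secreted antagonists of the Sfrp and Dkk families. They were matched by symbol, as Wnt followed by a number and an optional a or b, Fzd followed by a number, Sfrp1 to Sfrp5 and Dkk1 to Dkk4. This rule was set with earlier results of these data known. It gave 37 genes of the 52850 symbols in the count tables: 19 Wnt genes, 10 Frizzled genes, 4 Sfrp genes and 4 Dkk genes. Wnt proteins are secreted, lipid-modified signals that bind Frizzled receptors on the cell surface. When a Wnt joins a Frizzled to the co-receptor Lrp5 or Lrp6, the destruction complex built on Axin and Apc stops degrading beta-catenin, which then acts with Tcf and Lef transcription factors. Other Wnt signals act through Ror and Ryk receptors or through planar polarity proteins, without beta-catenin. Sfrp proteins bind Wnt ligands outside the cell, and Dkk proteins such as Dkk1 and Dkk2 bind the Lrp co-receptors. In the embryonic forebrain Wnt signals pattern the dorsal wall and act on progenitor cells, and Wnt7a and Wnt7b from neural cells act on growing brain vessels.

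RNA-seq counts were given for 12 mouse libraries of a study on ependymoma-related YAP fusion constructs. The YAP-M group held 4 libraries of brain tumours that grew after in utero electroporation of a plasmid called YAP-M, in which DNA is pulsed into cells of the fetal brain. The YMdIDR group held 3 libraries labelled as overexpressing a construct named YAP-MΔIDR, and their labels name both brain tumour tissue and neural progenitors grown from ES (embryonic stem) cells. The NSC-YAP group held 2 libraries of ES-derived neural progenitor cells that overexpressed YAP, and the growth protocol describes a culture medium with EGF and basic FGF. The SVZ group held 3 libraries labelled wild-type, although their tissue label also reads brain tumour. The age, strain and number of animals are not given in the labels, nor is the promoter of the constructs. They do not say whether replicates were separate animals or cultures, so the spread behind each p-value may be partly technical.

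Total counts per library lay between 20784130 and 25463303. Yap1, the gene the constructs are named for, stood at 92.7 to 105 CPM in YAP-M, 183 to 1274 CPM in YMdIDR, 238 to 241 CPM in NSC-YAP and 21.5 to 27.9 CPM in SVZ (CPM, counts relative to the TMM-scaled library size). YMdIDR replicate 1 had the lowest Yap1 level of its group. Transcripts tied to sex differed between libraries and between groups. Ddx3y of the Y chromosome stood at 81.7 CPM in YAP-M replicate 3 and at most 0.111 CPM in the other YAP-M libraries, at 69.9 CPM in YMdIDR replicate 3 and at most 0.135 CPM in replicates 1 and 2, at 48.0 and 50.4 CPM in NSC-YAP, and at 63.3, 4.54 and 72.1 CPM in SVZ. Xist, the transcript of the inactive X chromosome, stood at 415 CPM in SVZ replicate 2, 27.3 CPM in SVZ replicate 3 and 22.7 CPM in YMdIDR replicate 3. These libraries held both transcripts. Xist stood at 0.244 to 1.02 CPM in YAP-M replicate 3, SVZ replicate 1 and NSC-YAP, and at 288 to 396 CPM in the remaining YAP-M and YMdIDR libraries. No term for sex was fitted. Cell type markers differed between the groups. The summed level of 6 oligodendrocyte markers was 632 to 3304 CPM in YAP-M, 348 to 1256 CPM in YMdIDR, 147 CPM in both NSC-YAP libraries and 28304 to 34058 CPM in SVZ, and 6 of 6 were called lower against SVZ in each of the other groups. Summed over 6 neuronal markers the level was 184 to 513 CPM in YAP-M, 215 to 285 CPM in YMdIDR, 751 to 822 CPM in NSC-YAP and 3601 to 3719 CPM in SVZ. For 6 microglia and macrophage markers it was 1231 to 1906 CPM in YAP-M, 1462 to 1612 CPM in YMdIDR, 41.2 to 43.3 CPM in NSC-YAP and 233 to 319 CPM in SVZ. For 6 pericyte and fibroblast markers it was 291 to 785 CPM in YAP-M, 302 to 773 CPM in YMdIDR, 5.79 to 6.92 CPM in NSC-YAP and 252 to 303 CPM in SVZ. The YMdIDR libraries, whose labels name progenitor cells, held macrophage and fibroblast transcripts at levels near those of the YAP-M tumours. In NSC-YAP 5 of the 6 macrophage markers and 6 of the 6 fibroblast markers were called lower than in SVZ, but Cd68 was called higher there, at 39.3 to 39.8 CPM in NSC-YAP and 13.5 to 14.8 CPM in SVZ. Cldn5 of endothelial cells, Lum of fibroblasts and Kl and Clic6 of choroid plexus had no count in NSC-YAP. Choroid plexus markers summed to 23.5 to 307 CPM in YAP-M, 52.8 to 699 CPM in YMdIDR, 0.285 to 0.734 CPM in NSC-YAP and 972 to 2413 CPM in SVZ. In these bulk libraries fewer cells of a type and less RNA per cell cannot be told apart, and the part of the marker differences in the results below was not tested.

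Promoter sequence is shown for 3 of the ligands with a listed promoter: Wnt5b, which had the largest called fold change among the ligands that rose in YAP-M and in YMdIDR, and the sister genes Wnt9a and Wnt9b, which differed from SVZ in opposite directions in YAP-M. Each is the 250 bases before the RefSeq start on GRCm38.p6 (mm10), 5′ to 3′ on the strand of the gene, and capitals mark a match to the AP-1 motif TGANTCA. Wnt5b lies at chr6:119544348-119544597 on the minus strand (the most upstream of the 3 listed starts), Wnt9a at chr11:59306680-59306929 on the plus strand and Wnt9b at chr11:103749822-103750071 on the minus strand.
Wnt5b: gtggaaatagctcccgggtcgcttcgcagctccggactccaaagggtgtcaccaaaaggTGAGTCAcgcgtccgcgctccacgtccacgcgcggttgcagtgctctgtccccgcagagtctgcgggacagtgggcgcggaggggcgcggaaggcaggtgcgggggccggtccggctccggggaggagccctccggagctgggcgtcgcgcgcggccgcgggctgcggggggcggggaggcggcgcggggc
Wnt9a: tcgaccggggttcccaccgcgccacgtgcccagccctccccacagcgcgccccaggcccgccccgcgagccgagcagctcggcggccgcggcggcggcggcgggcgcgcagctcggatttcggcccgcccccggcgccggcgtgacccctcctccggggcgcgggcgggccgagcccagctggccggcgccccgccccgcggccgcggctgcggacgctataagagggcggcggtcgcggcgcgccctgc
Wnt9b: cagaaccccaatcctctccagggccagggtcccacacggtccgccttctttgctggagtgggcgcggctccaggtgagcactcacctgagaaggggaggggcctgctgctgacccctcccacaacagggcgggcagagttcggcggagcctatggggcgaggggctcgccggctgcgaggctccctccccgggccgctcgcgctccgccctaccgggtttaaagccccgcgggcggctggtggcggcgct
RefSeq promoters were listed for 25 of the 37 genes, at 28 starts. None was listed for Wnt5a, Wnt7b, Wnt8a, Wnt10a, Fzd2, Fzd3, Fzd6, Fzd8, Sfrp1, Sfrp4, Dkk3 or Dkk4. Both strands were searched for the TEAD core GGAATG (reverse CATTCC), the core CTTTGA of Tcf and Lef factors (reverse TCAAAG) and the AP-1 motif TGANTCA, whose letters read alike on both strands; none of these motifs contains another. No listed member promoter held GGAATG, against 12.6% of 32851 promoters of the same length. The core CTTTGA stood in 4 of the 28, those of Dkk1 with 2 matches, Fzd1, Wnt11 and the most downstream start of Wnt5b, against 13.8% of all promoters. TGANTCA stood in 1 of the 28, that of Wnt5b shown above, against 6.75% of all promoters. A match describes these letters only, and the absence of one in 250 bases says nothing about binding.

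A test was made of each gene that reached 1 CPM in 2 or more libraries, and 31 of the 37 did. The other 6 were Wnt1, Wnt3a, Wnt8a, Wnt8b, Dkk1 and Dkk4. Wnt1, the founding member of the family, reached 0.8288, 0.360 and 0.244 CPM in SVZ and at most 0.0742 CPM in any other library. Wnt8b, a forebrain ligand, stood at 0.0371 to 0.147 CPM in YAP-M, 0 to 0.0855 CPM in YMdIDR, 0.244 to 0.285 CPM in NSC-YAP and 0.342 to 0.553 CPM in SVZ. Dkk1, an inhibitor of Lrp5 and Lrp6 and itself a target of beta-catenin, had 22 counts over the 4 YAP-M libraries and none over the 3 SVZ libraries, which makes it at least 4.52-fold higher (the SVZ libraries together set to 3 counts). Wnt3a, Wnt8a and Dkk4 had a maximum of 0.0977 CPM in any library, or 2 counts. A gene was called when the adjusted p of edgeR was under 0.05 and the log2 fold change was at least 1 in size. Genes that passed the filter through a single high group had to differ, so counts over the tested members are descriptions.

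Against SVZ, the comparison that asks how the tumours differ from wild-type samples, ligand genes in YAP-M tumours moved in both directions. Wnt5a, Wnt5b, Wnt4, Wnt7b, Wnt9a, Wnt10a, Wnt10b and Wnt16 rose, and Wnt2b, Wnt3 and Wnt9b fell. Of the 15 ligands tested, 8 were called higher and 3 lower. Over all members tested, 16 of 31 were called higher and 6 lower (median log2 fold change 1.27), beside 25.8% of all 18329 genes called higher and 28.9% called lower (median -0.04). Among all called genes 47.1% were higher, and 57.7% with libraries scaled by total counts alone. Wnt5a (ENSMUSG00000021994, mm10 chromosome 14, 28504750 to 28527448, plus strand), the best known ligand of the Ror receptors, stood at 85.5, 84.9, 51.0 and 87.9 CPM in YAP-M, 62.9, 66.5 and 29.6 CPM in YMdIDR, 107 and 113 CPM in NSC-YAP and 8.93, 11.1 and 10.7 CPM in SVZ. Every library of the other groups lay above every SVZ library, with YAP-M replicate 3 and YMdIDR replicate 3 the lowest of theirs. The log2 fold change over SVZ was 2.92 ± 0.29 (SE) in YAP-M, 2.37 ± 0.30 in YMdIDR and 3.42 ± 0.32 in NSC-YAP (adjusted p = 4.23e-06, 2.17e-05 and 4.04e-06); these comparisons share the SVZ libraries.

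**Figure D1:**
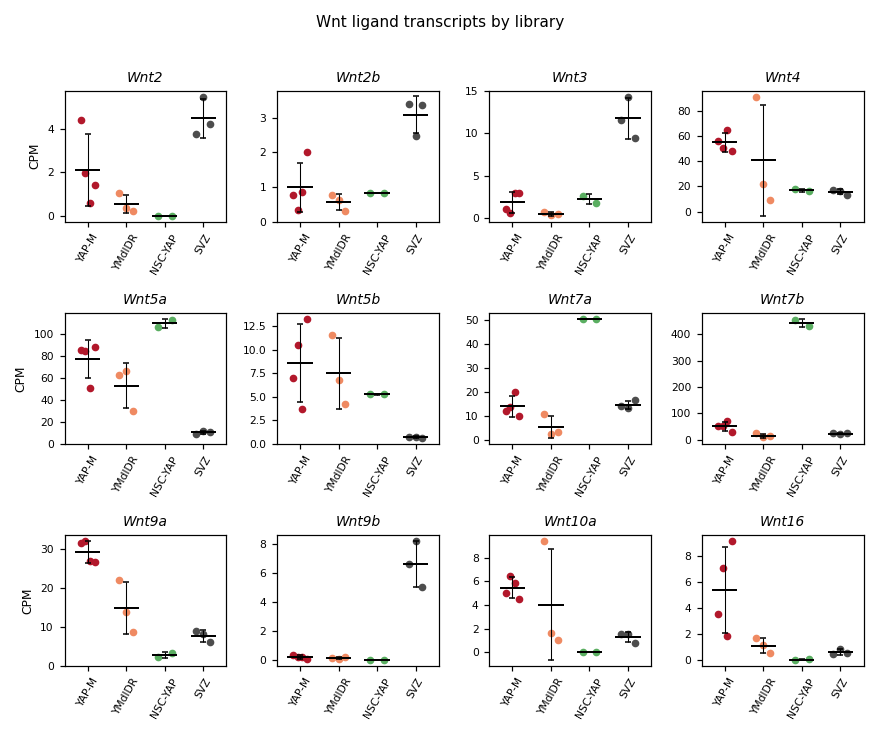
Wnt ligand levels in CPM (linear axes) for the ligands that averaged 2 CPM or more in any group, in YAP-M (n = 4), YMdIDR (n = 3), NSC-YAP (n = 2) and SVZ (n = 3). Points are libraries, lines are means and bars are SD; Wnt7b is highest in NSC-YAP, Wnt9b and Wnt3 are highest in SVZ, and 1 YMdIDR library stands far above the others for Wnt4 and Wnt10a.

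Wnt5b (ENSMUSG00000030170, mm10 chromosome 6, 119432531 to 119544347, minus strand), the close paralog of Wnt5a, stood at 7.03, 10.5, 3.75 and 13.3 CPM in YAP-M, 11.6, 6.76 and 4.20 CPM in YMdIDR, 5.33 and 5.26 CPM in NSC-YAP and 0.737, 0.764 and 0.635 CPM in SVZ. It was above all SVZ libraries in every other library, with log2 fold changes of 3.59 ± 0.50 in YAP-M, 3.39 ± 0.51 in YMdIDR and 2.88 ± 0.54 in NSC-YAP (edgeR adjusted p = 4.83e-05, 8.89e-05 and 0.000617). Wnt9a, a ligand known from joint development, stood at 31.5, 31.9, 26.97 and 26.7 CPM in YAP-M, 22.0, 13.8 and 8.74 CPM in YMdIDR, 2.20 and 3.26 CPM in NSC-YAP and 8.98, 8.13 and 6.01 CPM in SVZ. Its YAP-M libraries lay above all others, and it rose over SVZ by 1.92 ± 0.29 (adjusted p = 8.14e-05). In YMdIDR it was not called over SVZ (0.95 ± 0.29), and in NSC-YAP it fell (-1.50 ± 0.36, adjusted p = 0.00314).

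Wnt4, a ligand known from kidney and gonad development, stood at 56.0, 50.9, 64.6 and 48.3 CPM in YAP-M, 91.4, 22.2 and 9.41 CPM in YMdIDR, 18.0 and 16.1 CPM in NSC-YAP and 17.5, 16.3 and 13.4 CPM in SVZ. YAP-M libraries were close together and above SVZ, while YMdIDR replicate 1 was the highest of all 12 libraries and YMdIDR replicate 3 the lowest. The rise in YAP-M over SVZ was 1.80 ± 0.58 (adjusted p = 0.0134), and YMdIDR was not called (1.38 ± 0.60, adjusted p = 0.0519). Wnt10a, a ligand known from skin and tooth development, had the same uneven YMdIDR values, with 5.04, 6.48, 5.84 and 4.49 CPM in YAP-M, 9.40, 1.67 and 1.02 CPM in YMdIDR, no count in NSC-YAP and 1.57, 1.53 and 0.831 CPM in SVZ. The YAP-M libraries lay above the SVZ ones. Wnt10a rose in YAP-M over SVZ by 2.05 ± 0.68 (adjusted p = 0.0175), a call that was lost without SVZ replicate 3 (adjusted p = 0.0620). In YMdIDR replicate 1 the choroid plexus markers summed to 699 CPM, against 81.3 and 52.8 CPM in replicates 2 and 3. The pericyte and fibroblast markers summed to 773 CPM, against 407 and 302 CPM. Ependymal markers summed to 24.8 CPM there, against 7.16 and 6.71 CPM, and oligodendrocyte markers to 1256 CPM, against 348 and 619 CPM. Astrocyte, neuronal and endothelial sums were also highest in that library. Neural stem and radial glial markers (506 CPM, against 540 and 548 CPM) and blood markers (22.4 CPM, against 57.9 and 60.8 CPM) were lowest there. The part of these cell types in the Wnt4 and Wnt10a values was not tested.

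Wnt16, which is known from bone and blood stem cell development, stood at 3.53, 7.04, 1.79 and 9.13 CPM in YAP-M, 1.67, 1.13 and 0.486 CPM in YMdIDR, 0 and 0.0408 CPM in NSC-YAP and 0.460, 0.854 and 0.489 CPM in SVZ. All YAP-M libraries lay above all others, with a rise over SVZ of 3.15 ± 0.63 (adjusted p = 0.000727). Wnt10b, known from bone and fat tissue, had 0.883, 1.11, 1.62 and 1.37 CPM in YAP-M, 0.427, 0.901 and 0.883 CPM in YMdIDR and 0.368, 0.0899 and 0.391 CPM in SVZ, with no count in NSC-YAP. It rose over SVZ by 2.13 ± 0.49 in YAP-M and 1.37 ± 0.52 in YMdIDR. The second of these calls was lost without YMdIDR replicate 2 or 3 or SVZ replicate 2 (adjusted p = 0.0841, 0.0867 and 0.0951). Wnt11, a ligand of cell movement in the embryo, and Wnt6 were near 1 CPM or below in most libraries. Wnt11 stood at 0.815 to 1.19 CPM in YAP-M, 0.342 to 0.496 CPM in YMdIDR, 1.02 to 1.26 CPM in NSC-YAP and 0.293 to 0.629 CPM in SVZ. It was called higher in NSC-YAP over SVZ (1.16 ± 0.37, edgeR adjusted p = 0.0169). Wnt6 was not called in any of the 6 comparisons, with a highest value of 1.28 CPM in YMdIDR replicate 1.

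The ligands that were lower than in SVZ formed a different set. Wnt9b (ENSMUSG00000018486, mm10 chromosome 11, 103727364 to 103749821, minus strand), a ligand of kidney and craniofacial development, stood at 0.368, 0.185, 0.213 and 0.0742 CPM in YAP-M, 0.128, 0.0901 and 0.221 CPM in YMdIDR, no count in NSC-YAP and 6.58, 8.18 and 5.03 CPM in SVZ. It fell by 4.94 ± 0.41 on the log2 scale in YAP-M and by 5.44 ± 0.49 in YMdIDR (adjusted p = 2.05e-06 and 3.28e-06), and it was at least 109-fold lower in NSC-YAP. Its neighbour Wnt3, 24328 bases away on chromosome 11 and known for its role in axis formation, stood at 0.993, 0.519, 2.90 and 2.89 CPM in YAP-M, 0.684, 0.270 and 0.442 CPM in YMdIDR, 2.61 and 1.79 CPM in NSC-YAP and 11.5, 14.3 and 9.43 CPM in SVZ. All SVZ libraries lay above all others, and the log2 fold change was -2.69 ± 0.50 in YAP-M, -4.64 ± 0.63 in YMdIDR and -2.42 ± 0.64 in NSC-YAP. Wnt2b, a ligand of the dorsal midline of the forebrain, stood at 0.773, 0.333, 0.852 and 2.004 CPM in YAP-M, 0.769, 0.631 and 0.309 CPM in YMdIDR, 0.814 and 0.816 CPM in NSC-YAP and 3.41, 2.47 and 3.37 CPM in SVZ. All SVZ libraries were highest, and it fell in each of the 3 comparisons with SVZ (-1.63 ± 0.47, -2.42 ± 0.55 and -1.91 ± 0.61). Wnt2, a ligand of lung and placenta development, had 4.41, 1.96, 0.597 and 1.41 CPM in YAP-M, 1.03, 0.360 and 0.221 CPM in YMdIDR, no count in NSC-YAP and 3.78, 5.48 and 4.20 CPM in SVZ. YAP-M replicate 1 overlapped SVZ and YAP-M was not called (-1.09 ± 0.59), while YMdIDR fell by 3.05 ± 0.72 (-3.93 without YMdIDR replicate 1) and NSC-YAP was at least 73.6-fold lower. The summed levels of the neuronal, oligodendrocyte, astrocyte, ependymal, blood and choroid plexus markers were highest in SVZ too. Ependymal markers summed to 47.2 to 63.4 CPM in SVZ and 39.7 to 40.4 CPM in NSC-YAP. In YAP-M they summed to 12.9 to 29.3 CPM, and in YMdIDR to 6.71 to 24.8 CPM. Not each marker was highest in SVZ. Folr1 of choroid plexus averaged 26.7 CPM in YAP-M, 26.5 CPM in YMdIDR and 16.6 CPM in SVZ. Dcx of neurons averaged 55.3 CPM in NSC-YAP and 38.6 CPM in SVZ. The part of these cell types in the ligand differences was not tested.

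Among the 4 neighbouring Wnt pairs in the genome, pair members did not all move alike in YAP-M over SVZ. Wnt9b and Wnt3 both fell. Wnt10b rose beside Wnt1, 11706 bases away on chromosome 15, which was too low to test. Wnt10a rose and Wnt6, 6193 bases away on chromosome 1, was not called (0.69 ± 0.64). Wnt9a rose and Wnt3a, 16175 bases away on chromosome 11, had at most 1 count in any library.

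Wnt7a and Wnt7b, close paralogs, were higher in both NSC-YAP libraries than in any other library. Wnt7b (ENSMUSG00000022382, mm10 chromosome 15, 85535439 to 85581821, minus strand) stood at 51.6, 51.2, 72.4 and 29.5 CPM in YAP-M, 24.0, 9.24 and 12.7 CPM in YMdIDR, 454 and 431 CPM in NSC-YAP and 23.8, 23.0 and 23.9 CPM in SVZ. It rose over SVZ by 4.23 ± 0.39 in NSC-YAP and by 1.12 ± 0.32 in YAP-M (adjusted p = 3.59e-06 and 0.00778) and was not called in YMdIDR (-0.62 ± 0.34). Wnt7a stood at 12.3, 13.8, 20.2 and 10.2 CPM in YAP-M, 11.0, 2.57 and 3.53 CPM in YMdIDR, 50.5 and 50.6 CPM in NSC-YAP and 14.4, 13.5 and 16.6 CPM in SVZ. YAP-M overlapped SVZ (-0.07 ± 0.40), NSC-YAP rose by 1.77 ± 0.47, and YMdIDR fell (-1.37 ± 0.44), a call lost without YMdIDR replicate 3 (adjusted p = 0.0550), with only these 2 groups in the fit (0.0637) and, by size, without YMdIDR replicate 2 (-0.9965). Without YMdIDR replicate 1 the value was -2.28.

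All 10 Frizzled genes, the receptors of these ligands, were tested. In YAP-M tumours against SVZ, Fzd1, Fzd2, Fzd5, Fzd6, Fzd7 and Fzd8 rose, Fzd3, Fzd9 and Fzd10 fell, and Fzd4 was not called. YMdIDR had 5 receptors higher, Fzd2, Fzd5, Fzd6, Fzd7 and Fzd8, and the same 3 lower. In YMdIDR over SVZ, 10 of 31 tested members of all families were called higher and 10 lower (median log2 fold change 0.61), beside 26.9% and 29.6% of all genes (median -0.01). Fzd8 (ENSMUSG00000036904, mm10 chromosome 18, 9212856 to 9216201, plus strand), a receptor related to Fzd5, stood at 35.1, 41.9, 34.4 and 37.0 CPM in YAP-M, 21.5, 15.2 and 8.52 CPM in YMdIDR, 11.97 and 12.6 CPM in NSC-YAP and 6.03, 7.73 and 7.09 CPM in SVZ. All YAP-M libraries lay above all others, and it rose over SVZ by 2.41 ± 0.26 in YAP-M (adjusted p = 7.11e-06) and by 1.12 ± 0.26 in YMdIDR, a call lost by size without YMdIDR replicate 1 (0.77). Fzd5 had 22.1, 23.5, 15.1 and 28.6 CPM in YAP-M, 25.9, 13.5 and 10.2 CPM in YMdIDR, 11.1 and 10.2 CPM in NSC-YAP and 4.24, 5.35 and 5.57 CPM in SVZ. All SVZ libraries were lowest, with rises over SVZ of 2.15 ± 0.32 in YAP-M, 1.71 ± 0.33 in YMdIDR and 1.08 ± 0.36 in NSC-YAP. The last of these was lost without SVZ replicate 1, NSC-YAP replicate 1 or NSC-YAP replicate 2 (adjusted p = 0.0629, 0.0783 and 0.0543).

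**Figure D2:**
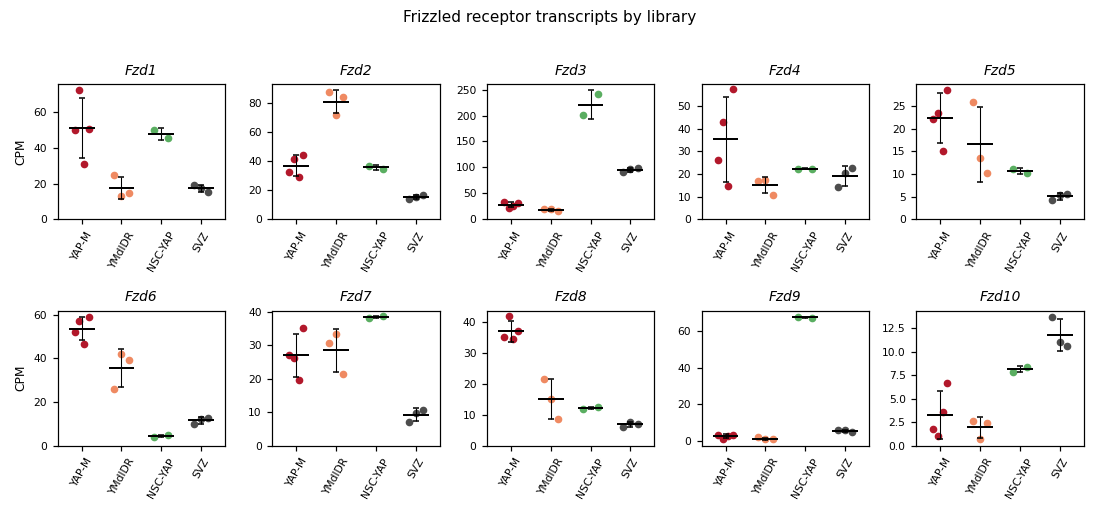
Levels of the 10 Frizzled genes in CPM (linear axes) in YAP-M (n = 4), YMdIDR (n = 3), NSC-YAP (n = 2) and SVZ (n = 3). Points are libraries, lines are means and bars are SD; Fzd6 and Fzd8 are highest in YAP-M, Fzd2 in YMdIDR, Fzd3 and Fzd9 in NSC-YAP and Fzd10 in SVZ.

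Fzd6 and Fzd3, the receptors best known from planar polarity, went in opposite directions. Fzd6 (ENSMUSG00000022297, mm10 chromosome 15, 39006280 to 39038186, plus strand) stood at 52.2, 57.1, 46.7 and 58.8 CPM in YAP-M, 25.9, 42.1 and 39.4 CPM in YMdIDR, 4.19 and 5.02 CPM in NSC-YAP and 9.99, 12.3 and 12.9 CPM in SVZ. The groups did not overlap, and it rose over SVZ by 2.19 ± 0.18 in YAP-M and 1.61 ± 0.18 in YMdIDR and fell in NSC-YAP (-1.35 ± 0.21). The tables list Fzd6 a second time on a patch scaffold with 1 to 1.004 times the chromosome 15 count in each library, so the same reads may stand in both. The levels are those of the chromosome 15 entry alone, whereas the fold changes were fitted on the sum of both entries. All 115 member calls were the same with patch scaffold entries left out. Fzd3 (ENSMUSG00000007989, mm10 chromosome 14, 65192449 to 65262463, minus strand) stood at 33.5, 22.3, 26.0 and 31.2 CPM in YAP-M, 19.8, 19.7 and 15.5 CPM in YMdIDR, 201 and 241 CPM in NSC-YAP and 90.7, 97.1 and 98.8 CPM in SVZ. Again no groups overlapped, in the order NSC-YAP, SVZ, YAP-M and YMdIDR from high to low; it fell below SVZ in YAP-M (-1.76 ± 0.14) and YMdIDR (-2.38 ± 0.16) and rose in NSC-YAP (1.21 ± 0.17).

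Fzd2 (ENSMUSG00000050288, mm10 chromosome 11, 102604396 to 102608058, plus strand), a receptor of both Wnt3a and Wnt5a type signals, was highest in YMdIDR. It stood at 32.2, 41.4, 29.3 and 44.5 CPM in YAP-M, 87.3, 71.7 and 84.0 CPM in YMdIDR, 36.9 and 34.5 CPM in NSC-YAP and 13.8, 15.0 and 16.9 CPM in SVZ. Every YMdIDR library lay above all others. Fzd2 rose over SVZ by 1.27 ± 0.16 in YAP-M, 2.41 ± 0.17 in YMdIDR and 1.23 ± 0.18 in NSC-YAP. Its relatives Fzd1 and Fzd7 differed from it in the YMdIDR group. Fzd1 had 50.0, 72.9, 31.1 and 51.0 CPM in YAP-M, 25.0, 13.3 and 14.8 CPM in YMdIDR, 50.1 and 45.6 CPM in NSC-YAP and 19.3, 17.8 and 15.2 CPM in SVZ. This was a rise of 1.55 ± 0.28 in YAP-M and 1.45 ± 0.32 in NSC-YAP with no call in YMdIDR (0.02 ± 0.29, adjusted p = 0.951). Fzd7 had 27.1, 26.3, 19.6 and 35.3 CPM in YAP-M, 30.6, 33.5 and 21.4 CPM in YMdIDR, 38.3 and 38.7 CPM in NSC-YAP and 7.04, 9.93 and 10.8 CPM in SVZ. All SVZ libraries were lowest, and it rose in all 3 (1.55 ± 0.23, 1.62 ± 0.24 and 2.05 ± 0.26).

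Fzd4, the receptor of the vessel signal Norrin, stood at 26.4, 43.1, 14.6 and 57.4 CPM in YAP-M, 16.8, 17.3 and 11.0 CPM in YMdIDR, 22.4 and 22.2 CPM in NSC-YAP and 14.2, 20.4 and 22.8 CPM in SVZ. Groups overlapped, and Fzd4 was not called against SVZ. The 6 endothelial markers, with a sum of 244 to 357 CPM in YAP-M, 158 to 221 CPM in YMdIDR and 134 to 188 CPM in SVZ, summed to 22.2 to 23.1 CPM in NSC-YAP, with 6 of 6 called lower against SVZ. The part of vessel cells in the Fzd4 levels was not tested. Fzd9, a receptor related to Fzd4 and Fzd10, had 2.83, 0.852, 2.39 and 3.30 CPM in YAP-M, 1.75, 0.766 and 0.751 CPM in YMdIDR, 67.8 and 67.2 CPM in NSC-YAP and 5.62, 5.80 and 4.94 CPM in SVZ. It rose by 3.63 ± 0.43 in NSC-YAP and fell in YMdIDR (-2.31 ± 0.44) and YAP-M (-1.22 ± 0.37); the call in YAP-M was lost by size without YAP-M replicate 2 (-0.85) and with libraries scaled by total counts alone (-0.88). Fzd10 stood at 1.84, 1.04, 3.58 and 6.72 CPM in YAP-M, 2.69, 0.721 and 2.47 CPM in YMdIDR, 7.90 and 8.40 CPM in NSC-YAP and 13.7, 11.0 and 10.6 CPM in SVZ. All SVZ libraries were highest, and it fell in YAP-M (-1.84 ± 0.54) and YMdIDR (-2.58 ± 0.62).

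Of the secreted antagonists, Sfrp1 and Dkk2 rose over SVZ in YAP-M and in YMdIDR, and Dkk3 was nearly absent from the progenitor cells. Sfrp1, which binds Wnt ligands, stood at 75.7, 122, 26.97 and 157 CPM in YAP-M, 206, 165 and 53.1 CPM in YMdIDR, 24.3 and 23.2 CPM in NSC-YAP and 17.2, 20.1 and 22.0 CPM in SVZ. YAP-M replicate 3 and YMdIDR replicate 3 were the lowest of their groups and still above SVZ. It rose by 2.27 ± 0.57 in YAP-M and 2.84 ± 0.60 in YMdIDR (adjusted p = 0.00318 and 0.00108). Sfrp2, another Wnt-binding protein of the family, had 16.2, 10.8, 5.88 and 12.8 CPM in YAP-M, 33.0, 2.16 and 1.41 CPM in YMdIDR, 6.31 and 6.04 CPM in NSC-YAP and 2.39, 3.24 and 2.35 CPM in SVZ. YMdIDR replicate 1 was the highest of all libraries and replicates 2 and 3 were below every SVZ library. Sfrp4 stood at 0.589, 1.33, 0.597 and 1.97 CPM in YAP-M, 2.52, 2.12 and 1.55 CPM in YMdIDR, 0.733 and 0.979 CPM in NSC-YAP and 1.75, 2.16 and 1.56 CPM in SVZ. Sfrp5 had 0.589, 0.815, 2.17 and 4.23 CPM in YAP-M, 1.28, 0.270 and 0.530 CPM in YMdIDR, 0.122 and 0.204 CPM in NSC-YAP and 3.45, 3.33 and 5.13 CPM in SVZ. It fell in YMdIDR (-2.50 ± 0.73, and -3.29 without YMdIDR replicate 1) and NSC-YAP (-4.56 ± 1.02). Neither Sfrp2 nor Sfrp4 was called against SVZ in any group. For Sfrp2, every YAP-M and NSC-YAP library still lay above SVZ (2.10 ± 0.91 and 1.21 ± 1.02, edgeR adjusted p = 0.0519 and 0.316). The YMdIDR libraries overlapped SVZ (2.19 ± 0.95, edgeR adjusted p = 0.0518).

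**Figure D3:**
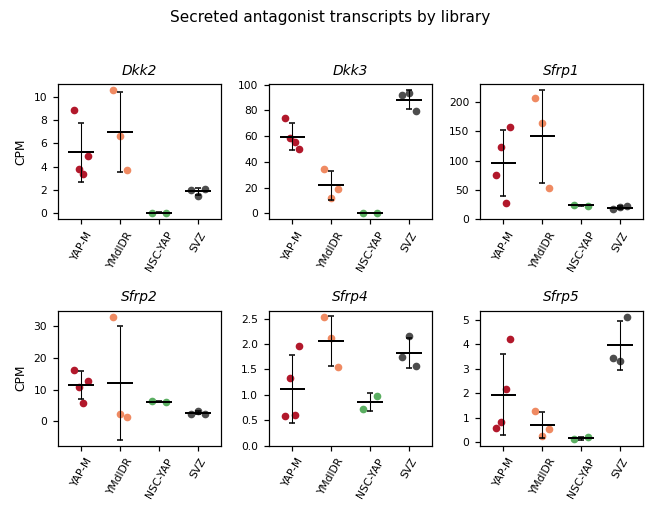
Levels of the Sfrp and Dkk genes that averaged 2 CPM or more in any group, in CPM (linear axes), in YAP-M (n = 4), YMdIDR (n = 3), NSC-YAP (n = 2) and SVZ (n = 3). Points are libraries, lines are means and bars are SD; Dkk2 and Dkk3 are almost absent from NSC-YAP, and Sfrp1 is highest in the YAP-M and YMdIDR groups with wide spread.

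Dkk3 (ENSMUSG00000030772, mm10 chromosome 7, 112116017 to 112159057, minus strand), a divergent Dkk protein, stood at 74.3, 58.1, 55.4 and 50.0 CPM in YAP-M, 34.2, 12.2 and 19.0 CPM in YMdIDR, 0.122 and 0.204 CPM in NSC-YAP and 91.8, 93.1 and 79.8 CPM in SVZ. The groups did not overlap. YAP-M was not called against SVZ (-0.57 ± 0.27, adjusted p = 0.0721), whereas Dkk3 fell by 2.02 ± 0.30 on the log2 scale in YMdIDR and by 9.04 ± 0.58 in NSC-YAP (adjusted p = 8.79e-05 and 2.61e-07). Dkk2, an inhibitor that binds Lrp6, had 8.87, 3.82, 3.32 and 4.90 CPM in YAP-M, 10.6, 6.62 and 3.71 CPM in YMdIDR, 0 and 0.0408 CPM in NSC-YAP and 1.98, 1.48 and 2.10 CPM in SVZ. Every YAP-M and YMdIDR library was above SVZ, with rises of 1.49 ± 0.44 and 1.91 ± 0.46. NSC-YAP had 1 count over its 2 libraries, against 119 over the SVZ libraries, a ratio of 0.0110 with a 95% counting interval of 0.000277 to 0.0627.

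Set on a scale per length, CPM per kilobase of the listed gene model, the make-up of the ligand transcripts differed between the groups, as did their sum. Summed over the 19 Wnt genes this level was 53.0 to 59.8 in YAP-M, 15.7 to 55.7 in YMdIDR, 136 to 141 in NSC-YAP and, in SVZ, 25.2 to 28.5. In YAP-M the largest shares of that sum belonged to Wnt4 with 22.8% ± 2.21 (SD, n = 4), Wnt7b with 19.97% ± 6.05 (SD, n = 4), Wnt5a with 17.3% ± 4.46 (SD, n = 4) and Wnt9a with 15.3% ± 1.29 (SD, n = 4); neighbours in that order were closer than the larger of their SDs. The YMdIDR libraries had 24.7% ± 12.9 (SD, n = 3) of Wnt4, 24.0% ± 9.47 (SD, n = 3) of Wnt5a, 15.0% ± 2.71 (SD, n = 3) of Wnt9a and 12.1% ± 5.45 (SD, n = 3) of Wnt7b. Over these libraries the share of Wnt4 ran from 14.3% to 39.1% and that of Wnt5a from 14.4% to 33.4%. Their order was not the same in each library. NSC-YAP was made up mostly of Wnt7b, with 72.2% ± 0.853 (SD, n = 2), followed by Wnt7a with 11.5% ± 0.2997 (SD, n = 2) and Wnt5a with 10.1% ± 0.651 (SD, n = 2). SVZ was spread over Wnt7b with 19.8% ± 1.65 (SD, n = 3), Wnt7a with 17.3% ± 3.07 (SD, n = 3), Wnt3 with 14.0% ± 2.13 (SD, n = 3) and Wnt4 with 13.8% ± 1.20 (SD, n = 3). Wnt5a and Wnt5b together held 23.1% ± 7.27 (SD, n = 4) in YAP-M, 33.3% ± 10.6 (SD, n = 3) in YMdIDR, 11.6% ± 0.672 (SD, n = 2) in NSC-YAP and 5.83% ± 0.633 (SD, n = 3) in SVZ. These shares do not depend on how the libraries were scaled; they do depend on the gene model lengths in the tables, and they were not tested.

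Receptor make-up was described the same way. The 10 Frizzled genes summed to 49.8 to 76.0 CPM per kilobase in YAP-M, 48.7 to 58.6 in YMdIDR, 87.7 to 89.3 in NSC-YAP and, in SVZ, 30.6 to 33.2. YAP-M had 20.2% ± 1.83 (SD, n = 4) of Fzd6, 18.5% ± 4.003 (SD, n = 4) of Fzd1, 17.3% ± 2.50 (SD, n = 4) of Fzd8 and 15.5% ± 0.788 (SD, n = 4) of Fzd2. In YMdIDR Fzd2 alone held 41.9% ± 4.66 (SD, n = 3), followed by Fzd6 with 16.7% ± 5.19 (SD, n = 3). In NSC-YAP Fzd9 held 33.3% ± 0.608 (SD, n = 2) and Fzd3 19.5% ± 2.22 (SD, n = 2). SVZ had 23.1% ± 0.168 (SD, n = 3) of Fzd3, with Fzd1 at 12.9% ± 2.04 (SD, n = 3) and Fzd2 at 12.9% ± 0.878 (SD, n = 3) next.

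**Figure D4:**
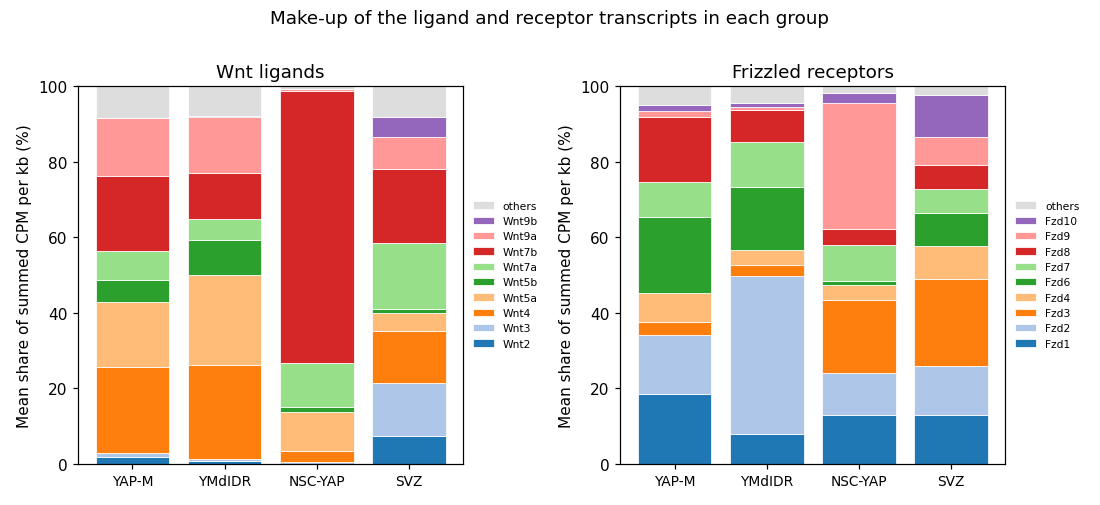
Mean share (%) of the summed CPM per kilobase held by each Wnt gene (left) and each Frizzled gene (right) in YAP-M, YMdIDR, NSC-YAP and SVZ, as stacked bars over 4, 3, 2 and 3 libraries. Genes under 5% in every group are joined as others; Wnt7b fills most of the NSC-YAP ligand bar and Fzd2 takes the largest part of the YMdIDR receptor bar.

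Between YAP-M and YMdIDR, the comparison of the full construct with the ΔIDR construct, most members that differed were higher in YAP-M. Wnt2, Wnt3, Wnt7a, Wnt7b, Wnt11, Wnt16, Fzd1, Fzd4, Fzd8 and Dkk3 were called higher, and Fzd2 alone was called lower. That is 10 of 31 tested members higher and 1 lower (median log2 fold change 0.74), beside 9.61% of all genes called higher and 6.78% called lower (median 0.01). Among all called genes 58.6% were higher, and 70.5% with libraries scaled by total counts alone. Wnt7b differed by 1.74 ± 0.33 (adjusted p = 0.00195), Wnt16 by 2.29 ± 0.59 (0.00925), Wnt11 by 1.28 ± 0.33 (0.0101), Fzd1 by 1.53 ± 0.28 (0.00162), Fzd8 by 1.299 ± 0.25 (0.00185) and Dkk3 by 1.45 ± 0.29 (0.00231). In each of these 6, no YMdIDR library reached the lowest YAP-M library. Fzd2 differed by -1.14 ± 0.15 (adjusted p = 0.000228), with every YMdIDR library above every YAP-M library. Fzd3, Fzd6 and Wnt9a passed the adjusted p with a log2 fold change under 1 in size (0.62 ± 0.15, 0.58 ± 0.17 and 0.98 ± 0.27). Wnt9a, close to the size threshold, was called higher under 12 of 20 alternatives (1.01 to 1.37). Fzd9 (1.10 ± 0.42, adjusted p = 0.0545) was called higher under 6 (1.10 to 1.62). Markers of other cell types differed between YAP-M and YMdIDR as well. Astrocyte markers summed to 1934 to 2882 CPM in YAP-M and 537 to 1669 CPM in YMdIDR, with 5 of 6 called higher in YAP-M and 0 lower. Of the endothelial markers 3 of 6 were called higher, and of 4 blood markers, which summed to 111 to 267 CPM in YAP-M and 22.4 to 60.8 CPM in YMdIDR, 3 were. None of either list was called lower. Neuronal markers and neural stem and radial glial markers each had 2 of 6 called higher and 1 lower. Ependymal markers had 1 of 6 called higher and 0 lower. No marker of oligodendrocytes, macrophages, fibroblasts or choroid plexus was called in this comparison. The part of these cell types in the differences was not tested. The Yap1 levels given above also differed between these groups, and the YMdIDR labels name progenitor cells besides tumour tissue. Construct, Yap1 level and sample type cannot be told apart in this comparison.

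The other 4 calls changed with single libraries or with the fit. Wnt2 (1.96 ± 0.69), Wnt3 (1.95 ± 0.60), Wnt7a (1.304 ± 0.42) and Fzd4 (1.24 ± 0.39) had overlapping libraries, and each was lost with only these 2 groups in the fit (adjusted p = 0.0827, 0.0593, 0.0775 and 0.0575) and without YMdIDR replicate 3 (adjusted p = 0.125, 0.0618, 0.0966 and 0.0865). Calls were also lost for Wnt2 without YAP-M replicate 1 (1.31, 0.107), YAP-M replicate 2 (0.0596), YMdIDR replicate 2 (0.113) or any SVZ library (0.0542 to 0.0563), for Wnt3 without YMdIDR replicate 2 (0.0712), for Wnt7a without YAP-M replicate 3 (0.0630) or YMdIDR replicate 2 (0.0750) and for Fzd4 without YAP-M replicate 4 (0.0539). Without YMdIDR replicate 1, which also had the lowest Yap1 level of its group, 16 members were called higher: Wnt4 (1.80), Wnt9a (1.37), Wnt10a (2.02), Sfrp2 (2.68), Sfrp5 (2.27) and Fzd9 (1.62) were added, and the values of Wnt2 and Wnt7a were 2.84 and 2.21. Wnt5a (0.54 ± 0.26), Wnt5b (0.20 ± 0.40), Fzd7 (-0.07 ± 0.21) and Sfrp1 (-0.56 ± 0.52), which stood above SVZ in both groups, were not called between them. An adjusted p above the threshold does not show that these levels were equal.

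**Figure D5:**
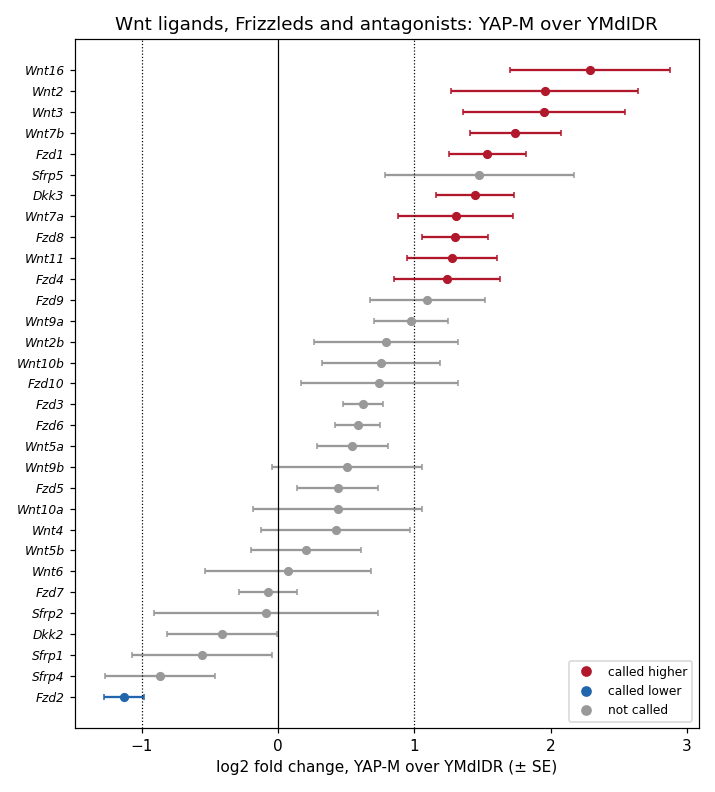
log2 fold change of YAP-M over YMdIDR with its SE for the 31 tested members, from the fit on all 12 libraries. Red and blue points passed both the adjusted p and the size threshold (dotted lines at 1 and -1); 10 members are higher in YAP-M and Fzd2 is lower.

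The NSC-YAP progenitor cells differed from the YAP-M and YMdIDR groups in the ligands that they lacked and in a few that stood far higher. Their markers of neural stem and radial glial cells differed too: 6 genes summed to 192 to 355 CPM in YAP-M, 506 to 548 CPM in YMdIDR, 1731 to 1795 CPM in NSC-YAP and 220.3 to 252 CPM in SVZ, and 5 of 6 were called higher in NSC-YAP than in SVZ. In YAP-M over SVZ 2 of the 6 were called higher and 3 lower, and the same numbers in YMdIDR over SVZ. Nes averaged 398 CPM in YMdIDR and 20.0 CPM in SVZ, while Sox2 averaged 9.95 CPM in YMdIDR and 84.4 CPM in SVZ. The part of these marker differences in the ligand and receptor levels was not tested. Against SVZ, 11 of 31 tested members were called higher and 12 lower (median log2 fold change 0.22, the same with the 4 genes at no count set to their bounds), beside 17.5% and 27.6% of all genes (median -0.10). In YAP-M over NSC-YAP, 14 were called higher and 4 lower (median 0.71), beside 28.9% and 21.6% of all genes (median 0.10). YMdIDR over NSC-YAP gave 12 higher and 9 lower (median 0.63), beside 27.4% and 20.4% (median 0.13). Wnt2, Wnt9b, Wnt10a and Wnt10b had no count in either NSC-YAP library, and Wnt16 and Dkk2 had 1. With the NSC-YAP libraries together set to 3 counts, Wnt10a was at least 89.2-fold higher in YAP-M and 67.1-fold in YMdIDR, Wnt2 at least 35.2-fold and 8.87-fold, Wnt10b at least 20.2-fold and 11.99-fold, and Wnt9b at least 3.44-fold and 2.40-fold. Without YMdIDR replicate 1, which held 220 of the 280 Wnt10a counts of YMdIDR, the bounds over NSC-YAP were 21.9-fold for Wnt10a and 4.74-fold for Wnt2 in YMdIDR. Without YAP-M replicate 1 the bound for Wnt2 in YAP-M was 22.2-fold. Wnt16 and Dkk2 gave ratios of 269 (95% counting interval 48.1 to 10657) and 260.0 (46.5 to 10286) in YAP-M over NSC-YAP.

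The 4 members lower in YAP-M than in NSC-YAP were Wnt7b (-3.11 ± 0.34), Wnt7a (-1.84 ± 0.43), Fzd9 (-4.84 ± 0.40) and Fzd3 (-2.97 ± 0.16), with adjusted p = 9.85e-06, 0.00252, 1.16e-06 and 4.14e-08. YMdIDR was lower in the same 4 (-4.85 ± 0.40, -3.14 ± 0.49, -5.94 ± 0.48 and -3.59 ± 0.18) and also in Wnt3 (-2.22 ± 0.66), Wnt5a (-1.05 ± 0.31), Wnt11 (-1.51 ± 0.38), Fzd1 (-1.43 ± 0.32) and Fzd10 (-2.05 ± 0.65). Without YMdIDR replicate 1 the value of Wnt7a was -4.05. Fzd8 was higher in YAP-M by 1.60 ± 0.29 and Fzd2 in YMdIDR by 1.18 ± 0.18. Fzd6 was higher in YAP-M by 3.54 ± 0.23 and in YMdIDR by 2.96 ± 0.23, Wnt9a by 3.42 ± 0.37 and 2.44 ± 0.36, Dkk3 by 8.47 ± 0.57 and 7.02 ± 0.56, and Sfrp1 by 2.01 ± 0.66 and 2.57 ± 0.69. The calls of Sfrp1, Fzd5 (1.07 ± 0.35) and Wnt4 (1.69 ± 0.67) in YAP-M over NSC-YAP were lost without NSC-YAP replicate 1 (adjusted p = 0.0795, 0.0654 and 0.129), as was that of Sfrp5 (3.54 ± 0.99, 0.0590; 2.86 without YAP-M replicate 4). They were also lost without NSC-YAP replicate 2 for Sfrp1, Fzd5 and Wnt4 (0.0905, 0.100 and 0.163), without YAP-M replicate 1 or 3 or SVZ replicate 2 for Wnt4 (0.0551, 0.0602 and 0.0501) and, by size, without YAP-M replicate 4 for Fzd5 (0.98). Calls lost in YMdIDR over NSC-YAP without a single library were those of Wnt3 (0.0646 without NSC-YAP replicate 1), Fzd10 (0.0556 without NSC-YAP replicate 2), Sfrp4 (1.26 ± 0.51 with all libraries; 0.0579 to 0.209 without any single YMdIDR, SVZ or NSC-YAP library other than YMdIDR replicate 3) and, by size, Wnt5a (-0.76 without YMdIDR replicate 3 and -0.98 with total counts alone). Against SVZ, those of Wnt11, Wnt2b and Wnt3 were lost without NSC-YAP replicate 2 (0.100, 0.0834 and 0.0592), those of Wnt16 and Wnt2b without replicate 1 (0.0718 and 0.0863) and that of Wnt11 without SVZ replicate 3 (0.0543).

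The rest of the pathway was read from lists of other Wnt genes, some of which stand in 2 lists. Genes that beta-catenin is known to activate did not all move one way. Among 13 such genes, the YAP-M over SVZ comparison had 3 higher and 6 lower (median log2 fold change -0.13), 3 and 7 in YMdIDR over SVZ (-1.63), 2 and 4 in NSC-YAP over SVZ (0.04), and 5 and 1 in YAP-M over YMdIDR (0.74, beside 0.01 over all genes). The shares of all genes that rose and fell were 25.8% and 28.9% in YAP-M over SVZ, 26.9% and 29.6% in YMdIDR over SVZ, 17.5% and 27.6% in NSC-YAP over SVZ, and 9.61% and 6.78% in YAP-M over YMdIDR. Axin2, the feedback inhibitor most used as a readout of the pathway, stood at 7.29 ± 1.54 CPM (n = 4, SD) in YAP-M, 3.34 ± 2.37 CPM (n = 3, SD) in YMdIDR, 26.9 ± 1.52 CPM (n = 2, SD) in NSC-YAP and 26.2 ± 1.43 CPM (n = 3, SD) in SVZ. It fell below SVZ in YAP-M (-1.84 ± 0.34, adjusted p = 0.000440) and YMdIDR (-2.96 ± 0.40, 3.83e-05), and was higher in YAP-M than in YMdIDR (1.12 ± 0.37, 0.0298). That last call was lost with only the 2 groups in the fit (0.0885) and without YAP-M replicate 4, YMdIDR replicate 2 or YMdIDR replicate 3 (0.0597, 0.0582 and 0.0956). Nkd1, another feedback inhibitor, stood at 6.92 ± 1.03 CPM (n = 4, SD) in YAP-M, 7.23 ± 6.62 CPM (n = 3, SD) in YMdIDR, 46.9 ± 0.646 CPM (n = 2, SD) in NSC-YAP and 37.6 ± 1.81 CPM (n = 3, SD) in SVZ. It fell in YAP-M (-2.44 ± 0.42) and YMdIDR (-2.38 ± 0.47). Lef1 fell in YAP-M (-2.18 ± 0.26), YMdIDR (-3.60 ± 0.32) and NSC-YAP (-3.12 ± 0.36), and the receptor gene Tnfrsf19 in YAP-M (-2.32 ± 0.25) and YMdIDR (-3.25 ± 0.29). Ccnd1, which encodes cyclin D1 and has many other inputs, rose in YAP-M (1.35 ± 0.17), YMdIDR (1.25 ± 0.18) and NSC-YAP (2.39 ± 0.20). Without YMdIDR replicate 1, 8 of the 13 were called higher in YAP-M over YMdIDR, and without YMdIDR replicate 3, 2 were lower. Without SVZ replicate 2, 1 was higher in YAP-M over SVZ, and with total counts alone 5 were.

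Ligand handling and the co-receptors showed single large changes. Wls, which carries Wnt proteins to the cell surface, stood at 278 ± 34.4 CPM (n = 4, SD) in YAP-M, 259 ± 36.2 CPM (n = 3, SD) in YMdIDR, 142 ± 0.397 CPM (n = 2, SD) in NSC-YAP and 48.2 ± 5.38 CPM (n = 3, SD) in SVZ. The rise over SVZ was 2.53 ± 0.14 in YAP-M, 2.43 ± 0.14 in YMdIDR and 1.56 ± 0.15 in NSC-YAP. Porcn, the enzyme that attaches the Wnt lipid, was called in none of these (0.66 ± 0.18 in YAP-M). Of 11 genes for ligand secretion and other inhibitors, 10 were tested. In YAP-M over SVZ, 2 of them rose and 4 fell (median -0.29), beside 25.8% and 28.9% over all genes tested. Cthrc1, a secreted protein that binds Wnt and Frizzled proteins, rose in YAP-M by 4.17 ± 0.42 to 241 ± 115 CPM (n = 4, SD), against 13.3 ± 1.10 CPM (n = 3, SD) in SVZ. Frzb, a Wnt-binding protein of the Sfrp family, fell in YAP-M (-2.05 ± 0.28) and YMdIDR (-2.97 ± 0.33). Wif1, a secreted Wnt-binding inhibitor, was not called in YAP-M or YMdIDR over SVZ (0.37 ± 0.57 and -0.05 ± 0.62) and rose in NSC-YAP (2.18 ± 0.65).

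Of 19 co-receptor and surface regulator genes, 17 were tested. In YAP-M over SVZ, 7 of them rose and 4 fell (median 0.19), beside 25.8% and 28.9% of all genes. The number that fell was 1 with total counts alone and 2 without YAP-M replicate 1 or 2 or SVZ replicate 1 or 2. Kremen1, a receptor of Dkk proteins, rose by 1.64 ± 0.10, the co-receptor Lrp5 by 1.87 ± 0.14 and the Wnt receptor Ryk by 2.15 ± 0.20. Lrp6 was not called in any comparison with SVZ (0.10 ± 0.11 in YAP-M). Ror1 and Ror2, the receptors of Wnt5a signals, differed from each other. Ror1 stood at 16.0 ± 2.94 CPM (n = 4, SD) in YAP-M, 2.20 ± 0.578 CPM (n = 3, SD) in YMdIDR, 4.79 ± 1.41 CPM (n = 2, SD) in NSC-YAP and 2.31 ± 0.529 CPM (n = 3, SD) in SVZ. It was higher in YAP-M than in SVZ by 2.79 ± 0.26 and than in YMdIDR by 2.86 ± 0.26 (adjusted p = 2.58e-06 and 3.93e-05), with no call in YMdIDR over SVZ (-0.07 ± 0.27). In NSC-YAP it rose by 1.05 ± 0.29, a call lost without NSC-YAP replicate 1 (0.0921) and, by size, without SVZ replicate 1 (0.93). Ror2 stood at 0.886 ± 0.360 CPM (n = 4, SD) in YAP-M, 0.657 ± 0.174 CPM (n = 3, SD) in YMdIDR, 11.6 ± 0.363 CPM (n = 2, SD) in NSC-YAP and 1.22 ± 0.256 CPM (n = 3, SD) in SVZ. It rose over SVZ in NSC-YAP (3.23 ± 0.35), with no call in YAP-M (-0.46 ± 0.32) or YMdIDR (-0.89 ± 0.35).

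Inside the cell, 2 of 18 transduction genes rose and 5 fell in YAP-M over SVZ (median -0.60), beside 25.8% higher and 28.9% lower over all genes, so the share that fell was near that of all genes. In YAP-M over YMdIDR 1 changed each way (0.03), Lef1 higher (1.42 ± 0.29) and Dvl2 lower (-1.05 ± 0.12). Dvl2, which carries the signal from Frizzled receptors, just passed the size threshold and was not called with total counts alone (-0.92), with no filter on low counts (-0.98) or without YAP-M replicate 1 or 3 or YMdIDR replicate 2 (-0.97 to -0.999). Apc, the scaffold of the destruction complex, fell by 2.57 ± 0.13 on the log2 scale, Axin1 rose by 1.72 ± 0.12 and the kinase gene Gsk3a fell by 1.13 ± 0.08, a call lost by size with total counts alone (-0.79). Ctnnb1, which encodes beta-catenin, was not called in YAP-M over SVZ (-0.80 ± 0.12) and was lower in YAP-M than in NSC-YAP (-1.55 ± 0.14). Of 11 planar polarity genes, 1 rose and 4 fell in YAP-M over SVZ (median -0.84), beside the same shares of all genes. Dact1 rose by 1.53 ± 0.27, and Prickle2 (-3.43 ± 0.30), Celsr3 (-2.89 ± 0.32) and Vangl2 (-1.25 ± 0.16, and -0.90 with total counts alone, no longer called) were among those that fell. Celsr3, Prickle2 and Apc are also expressed in neurons, whose 6 markers were called lower in 6 of 6 cases in YAP-M over SVZ, and their part was not tested.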

How the data were processed

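RNA-seq was analysed in 12 of the 17 samples; the 5 ChIP-seq and CUT&RUN samples were not analysed here. The authors deposited 1 table per library of raw gene counts, with gene coordinates and gene model lengths. TopHat2 and mm10 are named in the submitters' processing notes. How reads were counted (program, strand, multiple alignments, annotation release) is not given in the sources used here, so paralogs and antisense partners may share reads. Groups and replicate numbers came from the sample titles. Members and gene lists were chosen with earlier results of these data known.

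Counts were summed by symbol (53090 entries, 52850 symbols) and scaled by TMM factors (0.826 to 1.13); 3 counts correspond to 0.110 to 0.147 CPM. The 18329 genes that reached 1 CPM in 2 or more libraries entered 1 edgeR fit (version 4.0.16, quasi-likelihood, R 4.3.3) of all 12 libraries with a coefficient per group, and p-values were adjusted over all genes (Benjamini-Hochberg). The SE is the log2 fold change divided by the square root of its F statistic. Every member is named. Values per library are given for members that average 2 CPM or more in a group, and fold changes or bounds for most called members. From each other list the 3 called genes with the smallest adjusted p in YAP-M over SVZ were named, besides 11 set genes. Fold changes of genes that were not called, Dact1 and Dvl2 were added after their values were seen. Folds against groups with no count use a floor of 3 counts over the group, and counting intervals are exact at 95%; both cover counting error only. No replicate pair agreed within sampling noise (chi-square per gene from 3.90 to 76.1). The test was tried on simulated counts that gave all genes and groups the same spread. Such counts cannot show how the test behaves in a group as uneven as YMdIDR. Promoters came from RefSeq. Plots used Python 3.11.15 and matplotlib 3.10.9. Alternatives were other filters, scalings, DESeq2 1.42.0, the replicate number as a block, the compared groups alone, leaving out each library, and, added after seeing the data, leaving out patch scaffold entries, bounds without each library and the same alternatives for the other lists.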

Additional observations from a re-analysis of the deposited data

Results flagged for a closer look

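Among 23 members that averaged 2 CPM or more over the 4 YAP-M libraries, Wnt5a had 1 library that stood apart. YAP-M replicate 3 had 51.0 CPM, against 84.9 to 87.9 CPM in the others, a gap larger than Dixon's limit for 4 values. Chance flags about 1 in 20 groups, so 1 flag in 23 is near that share. The same library was the lowest of the YAP-M libraries in 14 of the 23 members (Dkk2, Fzd1, Fzd2, Fzd4, Fzd5, Fzd6, Fzd7, Fzd8, Sfrp1, Sfrp2, Wnt2, Wnt5a, Wnt5b and Wnt16) and the highest in 3 (Wnt4, Wnt7a and Wnt7b). It was also the YAP-M library with Y-linked transcripts (Ddx3y at 81.7 CPM, against 0.0368 to 0.111 CPM in the others). Its pericyte and fibroblast markers summed to 291 CPM, against 558 to 785 CPM in the others. Microglia and macrophage markers summed to 1231 CPM, against 1576 to 1906 CPM, and neural stem and radial glial markers to 192 CPM, against 291 to 355 CPM. Its ependymal and blood sums were the highest of the YAP-M libraries. The part of sex and of these cell types in the member values was not tested.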

How the results depend on the processing

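Of 115 member calls over the 6 comparisons, 93 were kept under all 20 alternatives and left-out libraries that could test them, and no call changed direction. A minimum of 5 CPM removed low members from the test, and 95 calls could be compared there. With only the 2 groups compared, 101 calls were kept and 5 were lost. The remaining calls could not be compared there, because their genes were not in that fit. Counts of called members stayed within 1.5 times of the reported ones except between YAP-M and YMdIDR. There, 10 were called higher; 6 were with only the 2 groups compared, and leaving out each library gave 6 to 16. The number called lower was 1; it was 2 with the replicate block and 1 to 2 without single libraries. The replicate numbers were not taken to pair the samples: same-numbered libraries of different groups had correlations of -0.0968 to 0.386 in their deviations from the group means, and in YAP-M against YMdIDR 2 of 3 libraries correlated best with their own number. Between NSC-YAP and SVZ both shared numbers did (0.104 and 0.113), with only 2 pairs. Under the replicate block 5 of 115 member calls were lost (Wnt10b in YMdIDR over SVZ, Fzd5 in NSC-YAP over SVZ, Fzd4 and Wnt3 in YAP-M over YMdIDR (0.85 and 1.52, adjusted p = 0.0654 and 0.0821) and Wnt5a in YMdIDR over NSC-YAP), as was that of Axin2 in YAP-M over YMdIDR (1.04, adjusted p = 0.0765), and the cause was not tested. Leaving out 1 NSC-YAP library makes the bounds against that group 2.00 times lower, and leaving out 1 SVZ library gives Dkk1 a bound of 2.96-fold to 3.08-fold, since the 3 counts then stand for fewer libraries. With libraries scaled by total counts alone the median of all genes shifted by 0.34 in YAP-M over SVZ and by 0.07 to 0.21 in the other comparisons, and in YAP-M over SVZ the share of calls that were higher was 57.7%, against 47.1% with TMM; in YAP-M over YMdIDR it was 70.5%, against 58.6%. Fits without an NSC-YAP library leave 1 sample in that group, which is then assumed to vary like the other groups. Depth limits statements on members under 1 CPM, where 3 counts are 0.110 to 0.147 CPM.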
